A study of Mus musculus with 2 samples.

Results

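The complement genes described here are C1qa, C1qb, C1qc, C3, Cfb, Cfp, C3ar1, C5ar1 and Vsig4. They were chosen by name, and their probes were found through the RefSeq accession that the scanner files give for each probe (NM_007572, NM_009777, NM_007574, NM_009778, NM_008198, NM_008823, NM_009779, NM_001173550 and NM_177789, in that order). Earlier results of these data were known when the genes were chosen. All 9 genes were found, with 10 probes on 28 spots, among 20654 genes that could be named on the array. All 9 were well above background on both arrays, as were 13479 of the named genes.

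RNA was measured on 1-colour Agilent mouse arrays, 1 array for wild type cells and 1 for Dnmt3a knockout cells. Both came from bone marrow of female C57BL/6 mice: nonadherent cells were kept in M-CSF for 2 days, and the adherent precursors were then given RANKL with M-CSF to form osteoclasts, the cells that resorb bone. Dnmt3a is an enzyme that sets new methyl groups on the C of CG dinucleotides. The deleted allele, how it was deleted, the age of the mice and whether several mice were pooled are not given in the sources used here. With 1 array per genotype no test across samples was possible, so each difference (log2, knockout minus wild type) stands beside an error that covers the measurement of the spots alone, and no value says how much cultures or mice of one genotype vary.

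Complement is a set of plasma and membrane proteins that mark particles for uptake and call in phagocytes. C1q, built from 3 chains, binds immune complexes and dying cells and starts the classical pathway; C3 is the protein on which all its pathways converge; factor B and properdin drive the alternative pathway, which amplifies the deposition of C3b. Most circulating complement comes from the liver, but macrophages are the main source of C1q and also make C3, factor B and properdin. They carry the receptors for the released peptides C3a and C5a, and some tissue macrophages carry Vsig4.

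All 9 genes gave a higher signal on the knockout array, from 1.34-fold for Cfb to 2.50-fold for Vsig4, with a median log2 difference of 0.57, after scaling each array to its 75th percentile; with spike-in scaling C3ar1, C5ar1 and Cfb lay below 0 (C5ar1 at -0.003). Over all measured genes the median difference was 0.01, and 51.9% lay above 0. Among the 9 genes 1 was at least 2-fold higher (background 0.824%) and 4 at least 1.5-fold higher (background 5.82%). None was lower; 0.727% of measured genes were past 2-fold and 4.69% past 1.5-fold downward. Since all 9 are at or above the median level of the measured genes, the nearer background is that of the 6740 genes at such levels, of which 0.401% and 4.79% were past these folds upward and 52.9% lay above 0. Each of the 9 exceeded 2 times its scanner error, as did 10.3% of all measured genes. Without Vsig4 the median of the other 8 was also 0.57, and 3 of them were at least 1.5-fold higher. Since the 9 were chosen with earlier results of these data known, these counts describe them and are not independent support.

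**Figure D1:**
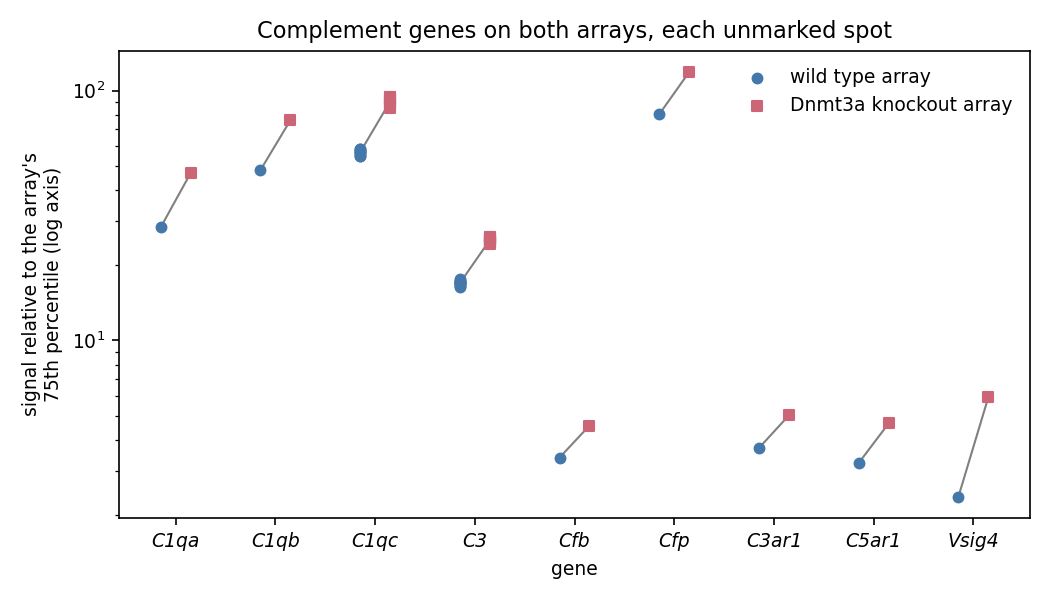
Signal of each complement gene for wild type (circles) and Dnmt3a knockout cells (squares), divided by the array's 75th percentile and drawn on a log axis; every point is a spot without an uneven or outlier mark, and lines join the means. All 9 lines run upward, by 1.34-fold for Cfb to 2.50-fold for Vsig4, and with spike-in scaling those of C3ar1, C5ar1 and Cfb would run downward; heights of different genes cannot be compared, because each has its own probe.

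The direction rests on the scaling, which assumes that the bulk of the RNA is alike on both arrays. The arrays also carry probes for spike-in RNA. Scaling to the median of 8 such probes lowers every difference by 0.53, so that the median of all measured genes becomes -0.52 and that of the 9 complement genes 0.043. Of these, 6 then stay above 0, against 7.37% of all measured genes and 6.39% of those at or above the median level; Vsig4 is at 0.79, C1qa at 0.19 and Cfb at -0.10. None of the 9 is then past 2-fold (background 0.134%) and 1, Vsig4, past 1.5-fold upward (background 0.482%, and 39.9% downward). Quantile normalization put 4.76% of measured genes past 1.5-fold upward and 5.94% downward. The single spike-in probes gave shifts from 0.30 to 0.72: after the lowest all 9 genes stay above 0, and after the highest only Vsig4 does. A constant shift leaves the place of each gene among the others as it was, and the values below are relative to the bulk of genes.

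To show what lies before these genes, the 250 bases before the start are printed for the 2 neighbouring C1q genes that the RefSeq promoter table (build GRCm38.p6) holds and for Vsig4, the gene with the largest difference. Each runs 5′ to 3′ towards the start, with CG dinucleotides, the sites that Dnmt3a can methylate, in capitals.
C1qb, chr4:136886201-136886450, minus strand: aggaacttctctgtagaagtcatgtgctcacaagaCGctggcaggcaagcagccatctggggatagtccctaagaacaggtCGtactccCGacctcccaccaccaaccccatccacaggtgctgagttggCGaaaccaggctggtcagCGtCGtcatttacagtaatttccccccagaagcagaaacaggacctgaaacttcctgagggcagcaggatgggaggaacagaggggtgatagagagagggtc
C1qc, chr4:136892915-136893164, minus strand: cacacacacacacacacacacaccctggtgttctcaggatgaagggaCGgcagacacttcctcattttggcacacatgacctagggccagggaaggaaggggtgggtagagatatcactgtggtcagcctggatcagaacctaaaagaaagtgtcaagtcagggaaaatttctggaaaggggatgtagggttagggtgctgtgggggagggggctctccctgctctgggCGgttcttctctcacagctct
Vsig4, chrX:96293439-96293688, minus strand: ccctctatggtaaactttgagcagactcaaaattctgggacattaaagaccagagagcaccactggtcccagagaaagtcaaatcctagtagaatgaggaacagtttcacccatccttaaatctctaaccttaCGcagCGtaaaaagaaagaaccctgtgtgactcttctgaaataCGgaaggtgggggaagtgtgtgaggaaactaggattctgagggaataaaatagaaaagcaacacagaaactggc
These windows hold 6, 2 and 3 CG dinucleotides, in the order printed. The median over all 32851 such windows was 6, and 29.0% held 2 or fewer. The table held 7 of the 9 genes, all but C1qa and Cfb. In the other 4 windows there were 1 (C3), 2 (C5ar1), 2 (Cfp) and 5 (C3ar1). None of the 7 windows exceeded the median of all windows, and no methylation was measured here.

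The same 7 windows were searched on both strands for 3 motifs. GAGGAA, a core that the myeloid factor PU.1 can bind, occurs in the windows of C1qb (30 to 25 bases before the start), C1qc (193 to 188, on the opposite strand) and Vsig4 (155 to 150 and 53 to 48), and in 23.3% of all windows. GGAA followed after any 2 bases by GAAA, a joint ETS and IRF motif, is in 0 of the 7 windows and in 2.30% of all. GAAA followed after any 2 bases by GAAA, a core of the interferon-stimulated response element, is also in 0 of the 7 and in 2.98% of all. GAGGAA can overlap the joint motif, since both contain GGAA. A match describes the letters and does not show that a factor binds.

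The 3 chains of C1q were nearly level with each other in their difference. C1qa, the A chain, read 16547 in the wild type culture and 26726 in the knockout, a difference of 0.72 (scanner error 0.20). C1qb, the B chain, went from 28032 to 43468, a difference of 0.66 (error 0.20). C1qc, the C chain, was spotted repeatedly: over its 8 unmarked spots the signal ran from 31932 to 34174, with a median of 33063, for the wild type, and from 48664 to 54073, with a median of 52065, for the knockout. These signals are unscaled, and their ranges on both arrays do not overlap. They are spots of 1 array each, and how many other repeated probes separate in this way was not counted. The difference of C1qc was 0.67 ± 0.043 (SD, n = 8 spots), and between 0.60 and 0.72 in each spot; 2 further spots marked as outliers on the wild type array left it at 0.67 when included. Of the 6740 genes at such levels 2.21% had a larger difference than C1qa, 3.01% than C1qc and 3.13% than C1qb. With spike-in scaling C1qc was at 0.14.

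The 3 chains span 0.059 in their differences, less than the typical SD of repeated spots (median 0.066 over 257 probes). They were thus not distinguishable from each other. In the order of genes, C1qb, C1qc and C1qa lie side by side with no other protein-coding gene between them. Of their nearest flanking genes, Ephb2 differed by 0.06 and Zbtb40 by 0.12, both within their error of 0.20, and Lactbl1 and Epha8 were not well above background on either array.

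C3 and the alternative pathway came next. C3, the central component, was spotted 10 times with its brighter probe. The signal ran from 9504 to 10237 (median 9917) for the wild type and from 13962 to 14891 (median 14355) for the knockout. These ranges of unscaled spot signals do not overlap either, with the same limit as for C1qc. Its difference was 0.57 ± 0.032 (SD, n = 10 spots), and its other probe, on 1 spot, gave 0.59 (5399 and 7964). Of genes at or above the median level 5.13% had a larger difference. Both probes of C3 therefore gave the same difference within the spread of spots. The gene lay just short of the 1.5-fold limit, which is 0.58 on the log2 scale. With normexp background correction it was just past that limit, at 0.59. With spike-in scaling it was at 0.043, within its scanner error of 0.20.

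Cfp, which encodes properdin, the protein that stabilises the C3 convertase of the alternative pathway, read 46956 (wild type) and 67896 (knockout), a difference of 0.56 (error 0.20). Cfb, which encodes factor B, the protease of that convertase, gave 1981 and 2607, a difference of 0.43 (error 0.20), the smallest of the 9. Both were higher on the knockout array by less than 1.5-fold, though Cfp reached 0.60 with normexp. Of genes at or above the median level 5.39% had a larger difference than Cfp and 9.47% a larger one than Cfb.

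**Figure D2:**
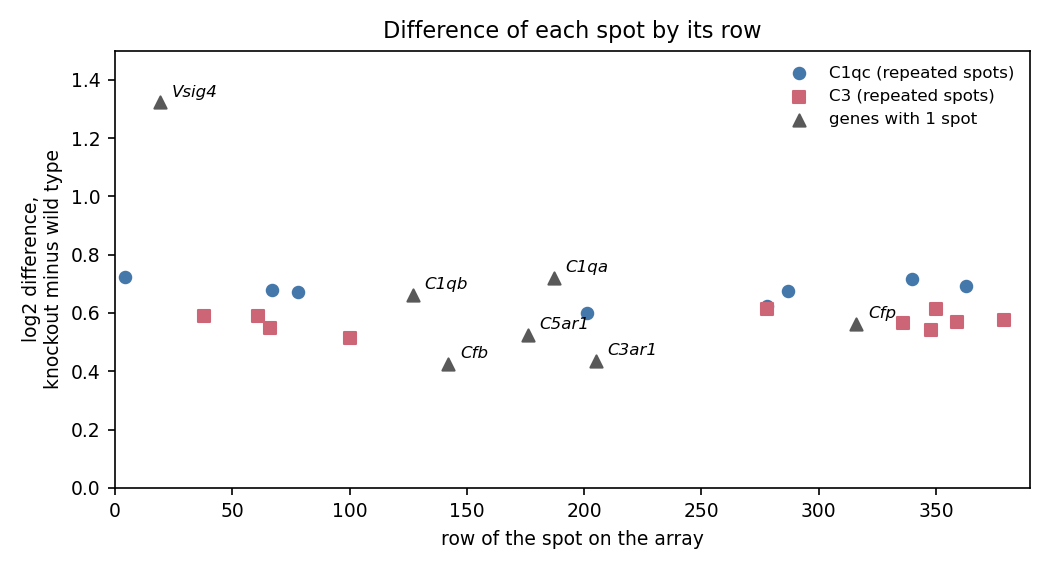
Log2 difference (knockout minus wild type) of each unmarked spot of the 9 complement genes against its row on the array; circles and squares are the repeated spots of C1qc and C3, triangles the genes with 1 spot. The spots of C1qc stay between 0.60 and 0.72 and those of C3 between 0.51 and 0.61 at all rows, and Vsig4, in row 19, stands above all of them at 1.32; spike-in scaling would lower each point by 0.53.

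The receptors ranged most widely. C3ar1, the receptor of C3a, read 2165 (wild type) and 2865 (knockout), a difference of 0.43 (error 0.20). C5ar1, the receptor of C5a, gave 1885 and 2659, a difference of 0.53 (error 0.20). Larger differences were seen in 9.12% and 6.44% of genes at or above the median level. Vsig4, also called CRIg, binds C3b and iC3b on particles and serves their uptake; it gave 1382 and 3387, a difference of 1.32 (error 0.20). Only 2 of the 6740 genes at or above the median level, and 23 of all 13479 measured genes, had a larger difference than Vsig4.

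Vsig4 exceeded C1qa, the next in order, by 0.60, with a joint scanner error of 0.29. The other 7 steps in the order, C1qa, C1qc, C1qb, C3, Cfp, C5ar1, C3ar1 and Cfb, were between 0.0084 and 0.092 and so within the joint error of 0.29. Vsig4 rests on 1 spot, in row 19, among the upper rows of the array, which also hold C1qb (row 127) but not Cfb (row 142) and which an earlier look at these data had raised. With the median difference of its surrounding block subtracted, Vsig4 was at 1.28. The 3 unmarked C1qc spots in the upper rows averaged 0.69 ± 0.029 (SD) and the 5 others 0.66 ± 0.048; for C3 the values were 0.56 ± 0.037 (n = 4) and 0.58 ± 0.029 (n = 6). The repeated genes thus gave like differences inside and outside these rows. They have no spot at the place of Vsig4, and whether its single spot is off was not tested.

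**Figure D3:**
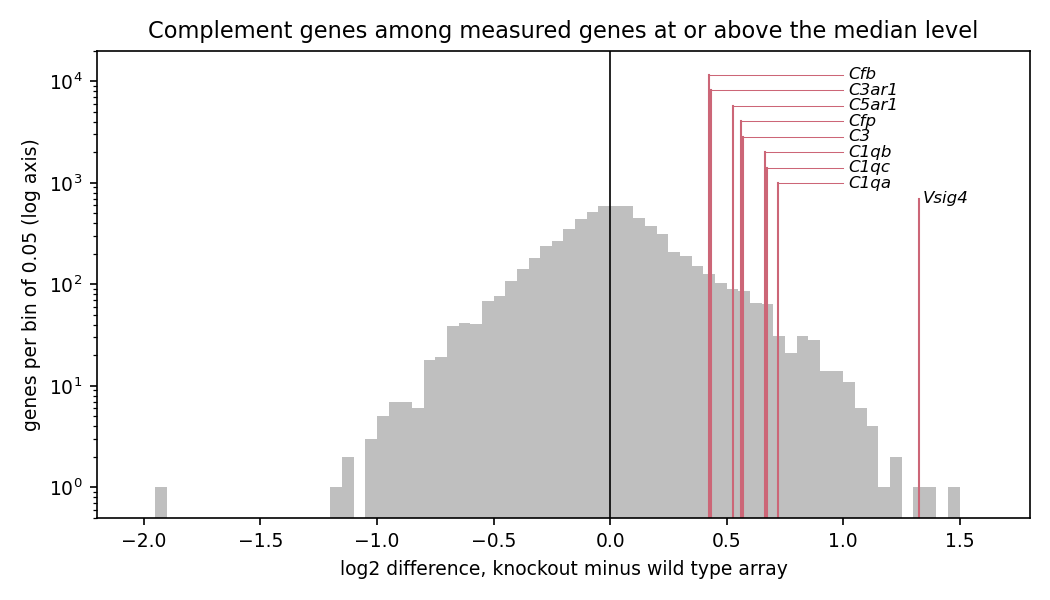
Number of genes (log axis) per bin of log2 difference, knockout minus wild type, among the 6740 measured genes at or above the median level; vertical lines, whose heights only make room for the labels, mark the 9 complement genes. The lines of 8 genes stand on the upper slope, from 0.43 to 0.72, and that of Vsig4 at 1.32 near the end; spike-in scaling would move bars and lines together by 0.53 to the left.

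Another 45 complement genes were listed by role, also with earlier results of these data known. Of the 45, 44 had a named probe (all but C4a) and 24 were measured on both arrays. Of these 24, 16 lay above 0 (background 51.9%), and the median of the 24 was 0.23. Past 1.5-fold there were 5 upward (background 5.82%) and 2 downward (background 4.69%). With spike-in scaling the median was -0.30 and 5 lay above 0 (background 7.37%). Another 15 genes were not well above background on either array, among them C6, C8a, C8b and C9, which build the membrane attack complex, and the lectin pathway genes Masp1, Mbl1 and Mbl2.

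The initiators and proteases measured on both arrays all lay above 0 (7 of 7, background 51.9%), with a median of 0.44. With spike-in scaling 3 of them stayed above 0 (background 7.37%). C1rb was highest at 1.09 (error 0.36; signals 35.1 and 73.0) but close to background, and its close relative C1ra, also a C1r protease, was at 0.59 (error 0.21; its other probe 0.56). Fcnb, a ficolin of myeloid cells, was at 0.75 (error 0.26), with low signals of 61.6 (wild type) and 102 (knockout). C2, the protease that pairs with C4b and lies next to Cfb, was lowest at 0.26 (error 0.20). C1s1, the partner protease of C1r, was not well above background on either array.

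Some genes of this role were above background on 1 array only, which gives a bound in place of a fold. Hc, which encodes C5, read 12.8 (wild type, not well above background) and 37.9 (knockout), higher by at least 0.58 on the log2 scale, just under the 1.5-fold limit. Masp2 read 44.5 (wild type) and 9.17 (knockout, not well above background), at least 2.46-fold lower, while its other 2 probes were above background on neither. For Colec11 the dim signal was above the limit used for a bound, so its value, 0.064 (error 0.43), is a plain difference within its error. For C1s2 the bound gave no fold. Among the terminal components C7 likewise gave a plain difference of 0.59 (error 0.38) by 1 of its 2 probes. Its signals were 31.5 (wild type, not well above background) and 46.5 (knockout). C8g, the only terminal component measured on both arrays, differed by 0.40 (error 0.21), and its other probe by 0.14. With spike-in scaling C8g was at -0.12.

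The regulators, which protect host cells and plasma from complement, went both ways, with 4 of 8 above 0 (background 51.9%). Serping1, the C1 inhibitor, read 456.9 (wild type) and 253.3 (knockout), a difference of -0.82 (error 0.21), and its other probe -0.74. Cd59a, which blocks the membrane attack complex, gave 1780 and 1039, a difference of -0.75 (error 0.20). Both were past 1.5-fold lower. Clu (clusterin), a regulator in the fluid phase like Serping1, was at 0.05 (error 0.20). On the membrane side Cd55, the decay-accelerating factor, was highest at 0.40 (error 0.23), Cr1l (Crry), the main inhibitor of C3 activation on mouse cells, was at 0.14 (error 0.20), and Cd59b was at -0.45 (error 0.30). With spike-in scaling all 8 measured regulators were below 0, where most genes lay: 7.37% of all measured genes were then above 0. C1ra and C1rb, Cd59a and Cd59b, and Cd55 and Cd55b are pairs of close relatives, and C4b (0.40) has the near copy C4a, so a probe of one may also detect the other.

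Of the 8 other receptors 4 lay above 0 (background 51.9%), and the median of the 8 was 0.022. C5ar2, a further receptor of C5a that lies next to C5ar1, was highest at 0.63 (error 0.20; its other probe 0.68). Cd93, a surface protein once described as a C1q receptor, was at 0.61 (error 0.20). Both stayed above 0 with spike-in scaling, at 0.10 and 0.079. C1qbp, a mostly mitochondrial protein that binds C1q, was lowest at -0.35 (error 0.20). The integrin chains of complement receptors 3 and 4 differed by 0.20 (Itgb2), -0.15 (Itgax) and -0.27 (Itgam, whose other probes gave 0.22 and 0.32), so the probes of Itgam disagree in sign.

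**Figure D4:**
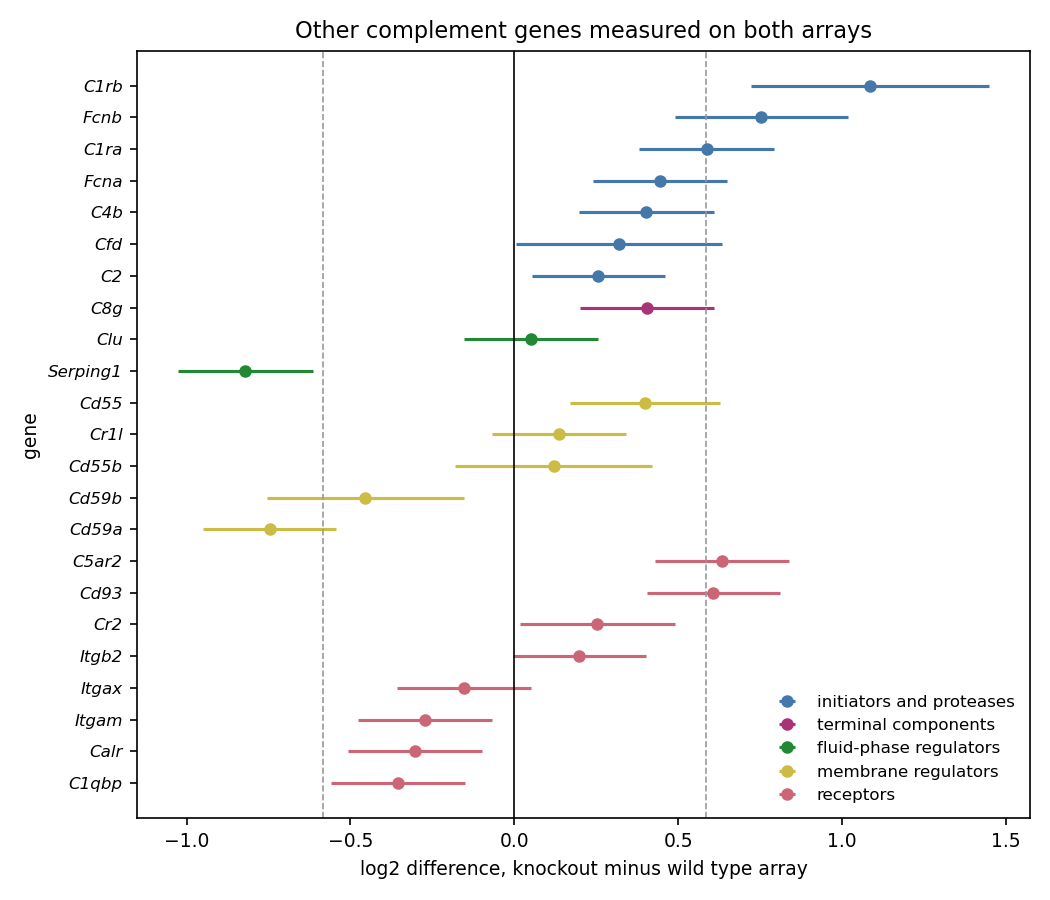
Log2 difference (knockout minus wild type) of 23 of the 24 other complement genes measured on both arrays, coloured by role; bars are the scanner error of the spots and dashed lines mark 1.5-fold. Initiators and proteases lie to the right, with C1rb at 1.09, while Serping1 (-0.82) and Cd59a (-0.75) lie farthest to the left; spike-in scaling would move all points by 0.53 to the left, and 5 would stay above 0.

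The genes next to the 9 on the chromosomes were looked at after the members' values were seen, taking the nearest 2 protein-coding genes on each side. Of 28 such genes 24 could be measured. Their median was 0.041, and 13 lay above 0 (background 51.9%). Clec4a1, a C-type lectin receptor of myeloid cells, was at 0.86 and is parted from C3ar1 by Necap1, at -0.019. C5ar2 was the other one past 1.5-fold upward, which makes 2 of the 24 (background 5.82%). Las1l, near Vsig4 and a factor of ribosome assembly, was lowest at -0.61, and alone past 1.5-fold downward (1 of 24, background 4.69%). The other measured flanks of Vsig4 on the X chromosome were Msn at -0.27 (error 0.20) and Heph at -0.27 (error 0.25), both little past their error. All measured flanks of Vsig4 thus lay below 0, and Vsig4 above it.

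Dnmt3a itself read 7042 (wild type) and 1822 (knockout), a difference of -1.92 (error 0.20); it is unknown whether its probe covers the deleted sequence. Of the spots that are not controls, 52.7% (wild type) and 59.7% (knockout) were well above background, and no spot was saturated. All 12 osteoclast markers were well above background on both arrays. All 12 lay below 0, where 51.9% of all measured genes lay above it, and 6 were past 1.5-fold (4.69% of all). Their median was -0.60, and -1.13 with spike-in scaling, from Tnfrsf11a at -1.20 to Acp5 at -0.00055. Their summed signal, relative to each array's 75th percentile, was 2013 (wild type) and 1742 (knockout).

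Macrophage markers lay on the same side as the 9 complement genes: of 13 on the array 12 were measured, 11 lay above 0 and 7 were at least 1.5-fold higher (median 0.69, and 0.16 with spike-in scaling), from Timd4 at -0.31 to Marco at 1.47. Their summed signal was 849.0 (wild type) and 1120 (knockout), and Cd163 was above background on neither. In RNA of a whole culture, more cells of a type and more RNA of a gene per cell cannot be told apart. Neutrophil markers were all measured, with 13 of 14 above 0 (median 0.44, and -0.091 with spike-in scaling), from Mmp9 at -0.58 to Mmp8 at 1.08. Their summed signal was 608.1 (wild type) and 628.4 (knockout). Mmp9 is also on the osteoclast list. It read 124580 (wild type) and 81393 (knockout), so it weighs on the sums of both lists. Interferon response genes were all above 0 (16 of 16, 13 of them at least 1.5-fold higher, median 0.83, and 0.30 with spike-in scaling; summed signal 240.3 and 389.9), from Oas2 at 0.29 to Cxcl10 at 1.19. Over all measured genes 51.9% lay above 0 and 5.82% were at least 1.5-fold higher. The part of the macrophage, neutrophil and interferon lists in the values of the complement genes was not tested.

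Of the other cell types, dendritic cell markers had a median of 0.40 (9 of 10 measured, Xcr1 above background on neither; summed signal 303.0 and 318.3). For markers of stromal cells and osteoblasts the median was -0.72, from Cxcl12 at -0.98 to Lepr at 0.16. Of 10 on the array 9 were measured, Runx2 was above background on neither, and the summed signal was 126.6 and 82.3. Of the 9, 7 lay below 0, where 51.9% of all measured genes lay above it, and 6 were at least 1.5-fold lower (4.69% of all). Serping1 also lay below 0, and the part of these markers in its value was not tested. B lymphocyte markers had a median of 0.18 (6 of 7 measured, Pax5 above background on the knockout array alone; 9.33 and 10.4). T and NK markers had 0.18 (3 of 7 measured; Cd3g, Cd8a, Klrb1c and Ncr1 above background on neither; 23.2 and 28.4), and erythroid markers -0.10 (3 of 5 measured, Klf1 above background on neither; 1.52 and 1.41).

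**Figure D5:**
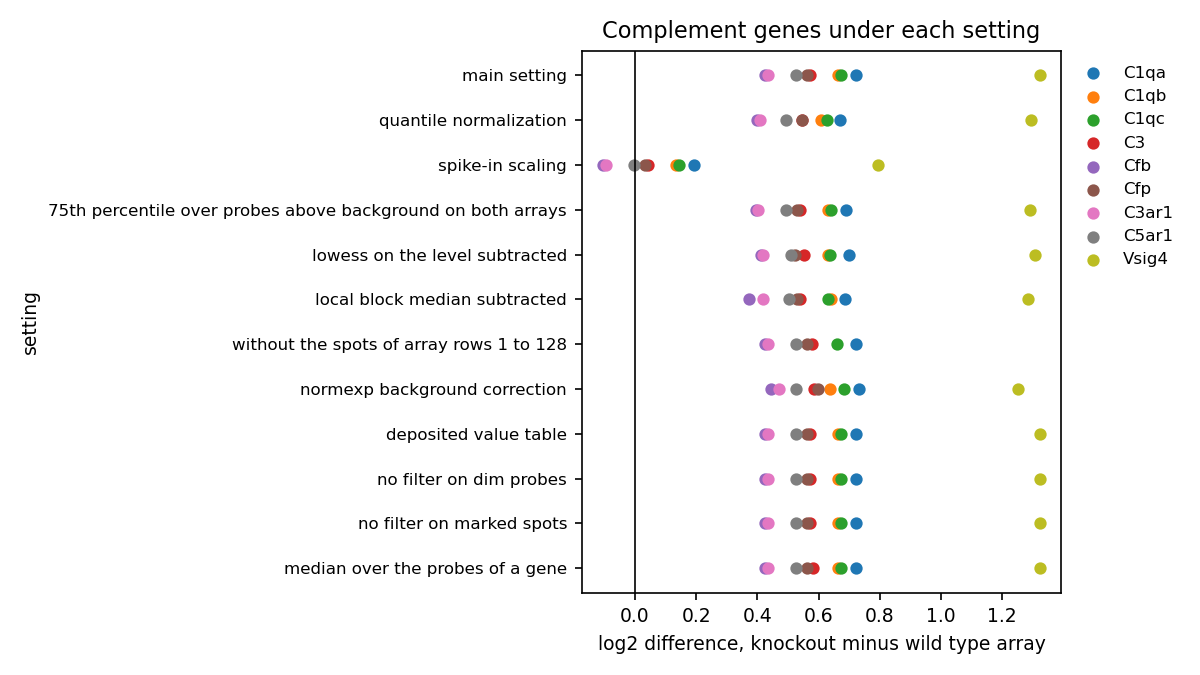
Log2 difference (knockout minus wild type) of each complement gene, one colour per gene, under the main setting and 11 alternatives. The genes other than Vsig4 form a narrow band in every setting. Spike-in scaling moves all points to the left by 0.53, which puts C5ar1, C3ar1 and Cfb below 0. Vsig4 stands apart to the right throughout, except without the spots of the upper rows, where it and C1qb have no value.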

How the data were processed

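The intensities used are the processed spot signals that the authors deposited. Agilent Feature Extraction 10.10.1.1 made them by subtracting background and spatial trends, per the file headers (mm9 positions); the submitters' processing notes name version 9.1. The headers record no scaling between arrays. The files' marks, also made by the authors' software and deposited as another kind of value (0 or 1 per spot), tell which spots are well above background, uneven or outliers.

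Intensities of non-control spots were divided by their 75th percentile on that array and taken to log2. Spots marked as uneven or outlying on either array (157 and 172) were left out, and spots of a probe were averaged. Probes were named by unversioned accession through a RefSeq table (GRCm38.p6), and a gene's brightest probe stood for it. A gene was measured when its probe was well above background in most spots on both arrays. For a gene bright on 1 array only, the bound sets the bright signal against the lowest signal well above background on the dim array (25.8 wild type, 17.7 knockout). Where the dim probe's own signal is higher, that signal is used, and the value is the plain difference. Errors are the software's, carried to log2. The calculations were checked on simulated data.

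The 9 genes and all lists were chosen with earlier results of these data known. Named genes were the 9, other complement genes past 1.5-fold, and the extremes of each role and of the main marker lists; others are named as parts of a role. Some genes of these lists enter the counts but are not reported here by name. Cd68, Bglap, Hbb-b1, Mx1 and Mx2 matched no probe name and were not analysed here. The deposited value table proved to be the processed intensity times 1 factor per array (medians of 1.55 and 1.54; column medians 59.6 and 66.5), with no centring or ratio, and how the factor was set is unknown. It served as an alternative, beside other scalings, level and position corrections, normexp (limma 3.58.1, on median spot signals), and other filters. Both arrays share a slide and a scan.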

Additional observations from a re-analysis of the deposited data

How the results depend on the processing

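Under 11 alternatives, the 9 complement genes kept their direction except with spike-in scaling (C3ar1, C5ar1 and Cfb below 0). Spike-in scaling gave a median of 0.043 for the 9, with 0 past 2-fold and 1 past 1.5-fold upward; for the other complement genes a median of -0.30, with 0 at least 1.5-fold higher and 8 lower; and -2.45 for Dnmt3a. It put 0.482% of all measured genes at least 1.5-fold higher and 39.9% lower, against 5.82% and 4.69% in the main setting; quantile normalization gave 4.76% and 5.94%. Without the spots of the upper rows of the array, which removes Vsig4 and C1qb, 0 of the remaining 7 genes were past 2-fold and 2 past 1.5-fold. Of the other complement genes 17 were then measured, of which 3 were at least 1.5-fold higher and 1 lower. Over all 9911 genes measured in that setting, the shares were 5.48% and 4.22%. Quantile normalization put the median of the other complement genes at 0.16, with 3 at least 1.5-fold higher; scaling over probes above background on both arrays, the lowess correction and the block correction also left 3. Normexp left 1 of the other complement genes at least 1.5-fold higher but put 6 of the 9 there, up from 4, as C3 (0.59) and Cfp (0.60) crossed the limit; it placed 3.64% of all measured genes at least 1.5-fold higher. With no filter on dim probes 44 of the other complement genes entered, with a median of 0.080, 9 at least 1.5-fold higher and 4 lower, where 12.4% and 5.89% of all 20654 named genes were. Vsig4 ranged from 0.79 to 1.32 and C1qa from 0.19 to 0.73 over the settings. No paired analysis was possible because each genotype has 1 array, and for the same reason no replicate could be left out. Precision is limited by the number of arrays; all 9 genes are far above background, while C1rb, Cfd, Hc, C7 and Masp2 are close to it.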

Other observations

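Vtn, which encodes vitronectin, an inhibitor of the membrane attack complex, shows how far a single dim spot can stray on these arrays. Its probe was spotted 10 times and was well above background in its unmarked spots on neither array, with wild type signals between 5.36 and 6.86 and knockout signals between 3.76 and 15.7 (median 4.40). A further knockout spot read 86.5, was called well above background and also carried an outlier mark, so it was left out with 2 other marked spots. Dim complement genes seen through 1 spot, such as Hc, Masp2 and C1rb, have no such repeat.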
